A study of Prunus persica with 8 samples.

Results

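The dormancy-associated MADS-box (DAM) genes of peach (Prunus persica) are 6 related genes in a tandem array, DAM1 to DAM6. They were picked from the deposited table by identifier, and all 6 of 6 were found among its 27864 gene models. The identifiers are ppa018667m.g for DAM1, ppb017585m.g for DAM2, ppa010758m.g for DAM3, ppa011123m.g for DAM4, ppa010822m.g for DAM5 and ppa010714m.g for DAM6. The link between identifier and DAM name comes from knowledge of the peach annotation, since the table itself carries no gene names. All 6 had enough reads to enter the test of growth habit.

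DAM proteins are MADS-domain transcription factors related to Short Vegetative Phase and Agamous-like 24, which in Arabidopsis act on the timing of flowering. In peach they are known for stopping shoot growth, setting the terminal bud and keeping buds dormant through winter. The evergrowing mutant of peach, which fails to form resting terminal buds, carries a deletion in this locus. Transcripts of DAM1, DAM2 and DAM4 are known to follow growth cessation and bud set, whereas those of DAM5 and DAM6 decline as dormant buds are chilled.

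RNA was sequenced from lateral shoot tips of 4 weeping trees, numbered 1 to 4, and 4 trees of standard growth habit, numbered 7 to 10. All were mature, field-grown trees from the F2 of a breeding cross, and each library came from shoot tips of 1 tree. Weeping trees have branches that bend downward, whereas the crown of standard trees is upright or spreading. The labels give neither the genotype of single trees nor the season of sampling. Libraries held 17011614 to 21584724 reads in genes for weeping trees and 17773493 to 19865152 for standard trees. WEEP (ppa013325m.g, linked to this name by knowledge of the study), whose loss is known to give the weeping habit, had 3 to 9 reads in weeping trees and 1615 to 1813 in standard trees, so the libraries matched their labels. WEEP lies on scaffold 3 and the DAM genes on scaffold 1. Per the column names, lane 8 carried the libraries of weeping trees 3 and 4, and lane 6 carried the remaining 6. Without gene names in the table, markers of the shoot tip could not be checked.

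All 6 DAM gene models lay on scaffold 1 within 63.0 kb, from 46335147 to 46398158, in the order DAM6, DAM5, DAM4, DAM3, DAM2, DAM1. Coordinates are those of the table, whose genome build is not given in the sources used here. DAM6 (46335147 to 46342262), DAM5 (46344191 to 46351743), DAM4 (46353152 to 46360953) and DAM3 (46362693 to 46371377) were direct neighbours with 1408 to 1928 bp between them. Their models span 7116 to 8685 bp, introns included. DAM2 (46388160 to 46389117) and DAM1 (46396983 to 46398158) were listed as short models of 958 and 1176 bp. Between DAM3 and DAM2 lay 16782 bp with 1 other listed model, and between DAM2 and DAM1 lay 7865 bp with 2. DAM1 and DAM2 were kept, since they continue the same array on the same scaffold, but only DAM3 to DAM6 stand side by side in the strict sense.

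DAM3 collected the most reads of the 6 and DAM6 the fewest in every tree. Reads per library in DAM3 ranged from 656 to 1151 in weeping trees and from 1041 to 1817 in standard trees. Reads in DAM6 ranged from 22 to 54 in weeping trees and from 24 to 55 in standard trees. Every DAM gene was therefore detected in every tree, in shoot tips of both habits.

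**Figure D1:**
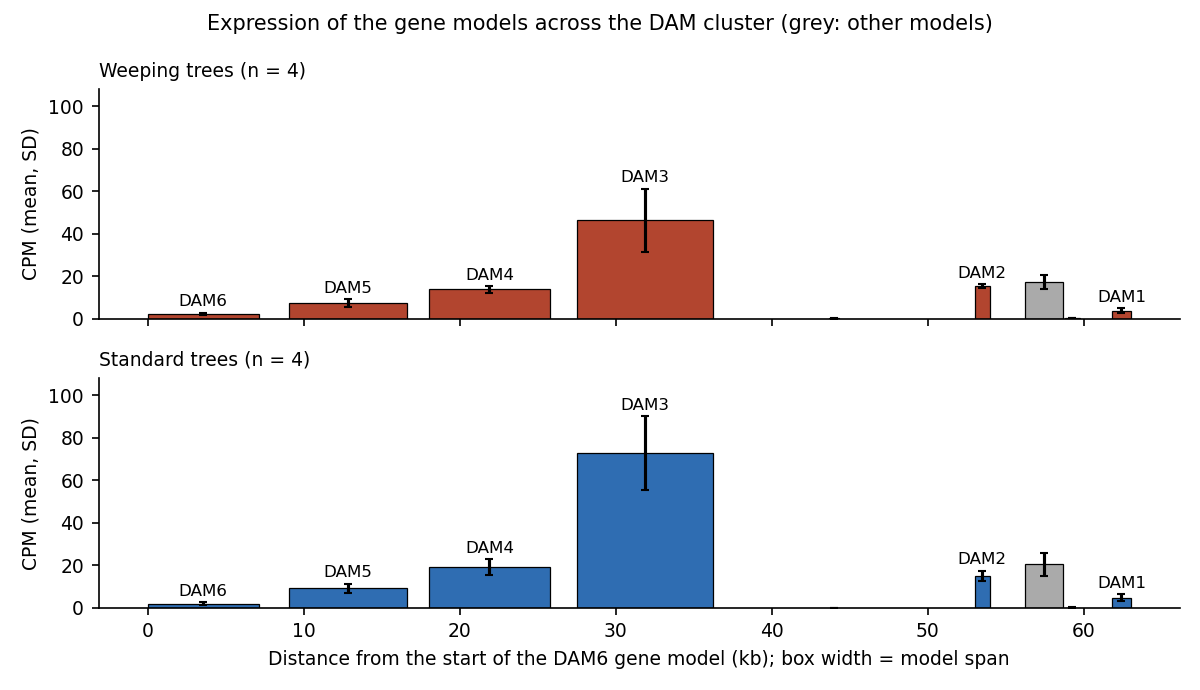
Mean expression (CPM, y axis; bars are means, error bars SD, n = 4 trees) of the 9 gene models of the DAM cluster against distance from the start of DAM6 (kb, x axis), in weeping trees above and standard trees below. Box width is the model span, grey boxes are the 3 other listed models, and DAM3 is the tallest box in both habits.

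No DAM gene passed the test of growth habit. By edgeR's quasi-likelihood test over 18520 genes, 0 of the 6 reached an adjusted p under 0.05, where 11.5% of all tested genes passed. At an unadjusted p of 0.05, 2 of the 6 passed, DAM3 and DAM4, both with lower values in weeping trees; of all tested genes 31.2% passed at that level and 15.9% did so with lower values in weeping trees. The other tools split, with DESeq2 calling DAM3 and DAM4 (20.9% of all genes called) and limma-voom calling 0 of the 6 (13.1%). The median log2 fold change, weeping over standard, was -0.34 over the 6 DAM genes and 0.01 over all tested genes. In 4 of the 6 the fitted change was below 0, as it was for 49% of all tested genes. In no DAM gene did all weeping trees lie on one side of all standard trees, an arrangement found in 18.7% of tested genes. Whole shoot tips were sequenced, so fewer cells that transcribe a gene and less RNA per cell cannot be told apart.

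DAM3 showed the largest fitted difference of the 6. Its level was 35.4, 40.1, 41.5 and 68.2 CPM (read counts scaled to library size with TMM) in weeping trees 1 to 4. In standard trees 7, 8, 9 and 10 it was 97.5, 66.3, 57.5 and 69.7 CPM. Weeping trees 1 to 3 lay below every standard tree, and weeping tree 4 lay inside the standard range, above standard trees 8 and 9. The means were 46.3 ± 14.8 CPM in weeping and 72.8 ± 17.3 CPM in standard trees (SD, n = 4 each). Weeping over standard, the fitted log2 fold change was -0.65 (standard error 0.23) with a 95% interval of -1.17 to -0.14, which spans folds of 0.444 to 0.909 (unadjusted p = 0.0187, adjusted p = 0.0916 by edgeR). At 656 or more reads per library the counting error was at most 3.90% of the value, far under the spread between trees.

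The call on DAM3 changed with the tool and with the trees used. With all 8 trees DAM3 passed by DESeq2 (adjusted p = 0.0372, where 20.9% of genes were called) but not by edgeR. Without weeping tree 4 the log2 fold change was -0.91 and DAM3 passed (adjusted p = 0.0132 by edgeR), in a fit that called 21% of all genes. Of the 8 fits with 1 tree left out, this was the only 1 in which DAM3 passed. Without standard tree 7, its highest tree, the log2 fold change was -0.48 (adjusted p = 0.209 by edgeR, where 471 genes were called). Within lane 6, weeping trees 1 and 2 against the 4 standard trees, the log2 fold change was -0.95. DAM3 passed there too (adjusted p = 0.0397 by edgeR), where 9.9% of genes were called. With lane as a term in the model it was -0.95 and did not pass (adjusted p = 0.0566 by edgeR, where 8.7% of genes were called). Lane 8 held weeping trees alone and gives no comparison of its own. Weeping tree 4 was also the weeping library nearest to the standard trees on the first principal component of all tested genes, at 0.33, against 35.7 to 67.9 in the other weeping trees and -53.3 to -13.6 in the standard trees. The part that this overall state of the tree had in the DAM3 value was not tested.

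DAM4, which in peach follows growth cessation and bud set, had the smallest unadjusted p of the 6. Its level was 12.8, 12.3, 13.4 and 16.1 CPM in weeping trees 1 to 4, against 23.9, 20.7, 15.6 and 16.5 CPM in standard trees 7 to 10. Here too weeping trees 1 to 3 lay below every standard tree, and weeping tree 4 exceeded only standard tree 9. The log2 fold change was -0.49 with a standard error of 0.16 and a 95% interval of -0.84 to -0.14 (unadjusted p = 0.0121, adjusted p = 0.0723 by edgeR). DAM4 passed without weeping tree 4, at -0.58 (adjusted p = 0.0368 by edgeR), and without standard tree 9, at -0.57 (adjusted p = 0.0374 by edgeR, where 18.1% of genes were called). These were the only 2 of the 8 fits with 1 tree left out in which DAM4 passed. Without standard tree 7, its highest tree, the log2 fold change was -0.37 (adjusted p = 0.167 by edgeR). DAM4 did not pass within lane 6, where its log2 fold change was -0.61 (adjusted p = 0.0869 by edgeR).

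DAM5, one of the members tied to chilling of dormant buds, had 5.83, 6.38, 7.66 and 9.89 CPM in weeping trees 1 to 4. In standard trees 7 to 10 it had 11.7, 10.5, 7.57 and 7.42 CPM. The groups overlapped widely: weeping trees 3 and 4 exceeded standard trees 9 and 10. The log2 fold change was -0.32 with a standard error of 0.22 (95% interval -0.82 to 0.17, adjusted p = 0.340 by edgeR). It was -0.61 within lane 6 and with lane as a term, and -0.19 without standard tree 7, and did not pass in any of these. A change to 0.568 of the standard level and a rise to 1.12 times that level both lie within the interval.

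DAM6, the other gene tied to chilling, was scarce in every shoot tip. It had 22, 54, 48 and 38 reads in weeping trees 1 to 4 and 55, 35, 24 and 36 reads in standard trees 7 to 10. On the CPM scale the means were 2.12 ± 0.637 in weeping and 2.02 ± 0.685 in standard trees (SD, n = 4 each). Weeping tree 1 was the lowest of the 8 libraries and standard tree 7 the highest. The log2 fold change was 0.07 with a 95% interval of -0.65 to 0.80 (adjusted p = 0.900 by edgeR), and its sign was negative within lane 6, at -0.14. With 22 to 55 reads the counting error is 13.5 to 21.3% of a single value, and trees of a habit varied more than that, with a coefficient of variation of 30.0% in weeping and 33.9% in standard trees. The interval covers folds of 0.636 to 1.74, so changes within these bounds are compatible with these data.

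DAM1 and DAM2, both linked to growth cessation and bud set, differed in how much the trees varied. DAM1 had 2.64, 3.76, 3.59 and 5.10 CPM in weeping trees 1 to 4, and 6.71, 3.74, 3.59 and 5.29 CPM in standard trees 7 to 10. Its groups overlapped, and the log2 fold change was -0.36 (standard error 0.27, 95% interval -0.96 to 0.25, adjusted p = 0.390 by edgeR). For DAM1 it was -0.60 within lane 6, -0.59 with lane as a term and -0.16 without standard tree 7, and did not pass in any of these. DAM2 was the steadiest member, with 15.1, 15.8, 16.3 and 14.5 CPM in weeping trees 1 to 4 and 16.3, 15.1, 11.9 and 17.2 CPM in standard trees 7 to 10. Its groups overlapped fully, since all weeping trees lay inside the standard range. The log2 fold change of DAM2 was 0.03 with a standard error of 0.12. Its 95% interval, -0.26 to 0.31, covers folds of 0.838 to 1.24 (adjusted p = 0.910 by edgeR).

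**Figure D2:**
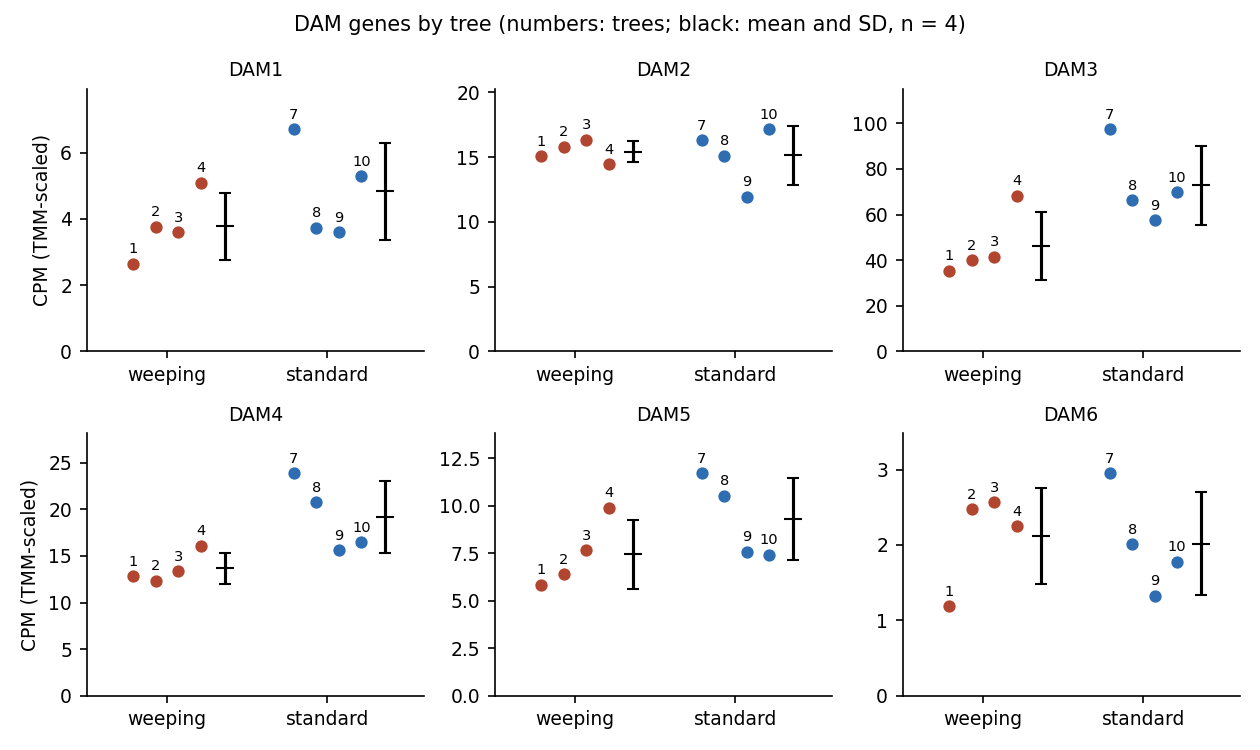
Expression of each DAM gene (CPM after TMM scaling, y axis, from 0) in weeping trees 1 to 4 and standard trees 7 to 10; points are trees, and black marks show the mean and SD (n = 4). Weeping tree 4 lies above the other weeping trees in DAM1, DAM3, DAM4 and DAM5, and standard tree 7 is the highest of all trees in every gene but DAM2.

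**Figure D3:**
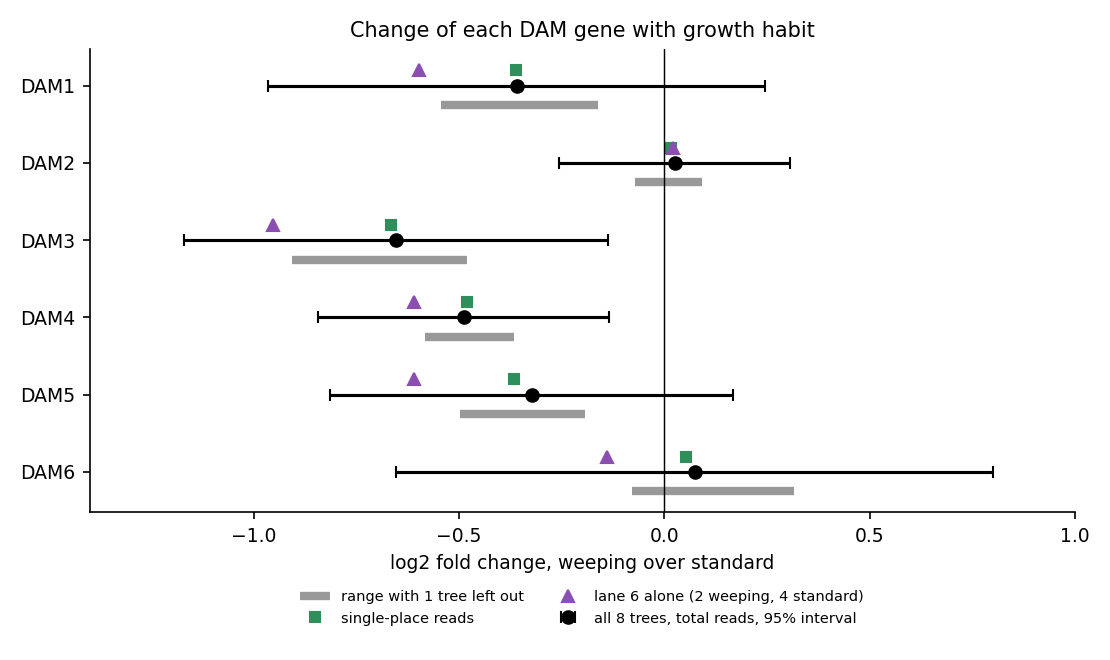
Log2 fold change of each DAM gene, weeping over standard (x axis), with the 95% interval from all 8 trees, the value from single-place reads, the value within lane 6 and the range when 1 tree is left out. The intervals of DAM3 (-1.17 to -0.14) and DAM4 (-0.84 to -0.14) lie below 0 before adjustment over all genes, and the other 4 include 0.

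The authors' deposited table holds a test of its own, Baggerley's, in which 1244 of the 27864 genes passed a corrected p of 0.05 and no DAM gene did. For DAM3 the deposited table of the authors gives a fold of -1.51, the minus sign marking lower values in weeping trees, with a p of 0.0359 and a corrected p of 0.326 from that test. For the other 5 members the corrected p in the authors' deposited table was 1, with folds of -1.34 for DAM4, -1.23 for DAM1, -1.19 for DAM5, 1.06 for DAM2 and 1.11 for DAM6.

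Levels of different genes were compared per length, as RPKM over the span of the gene model. Among the adjacent members, whose spans are alike, the level stepped down along the array from DAM3 through DAM4 and DAM5 to DAM6 in 8 of 8 trees. DAM3 had 3.43 to 6.76 RPKM in weeping and 5.67 to 9.86 RPKM in standard trees. DAM4 had 1.38 to 1.78 RPKM in weeping and 1.72 to 2.69 RPKM in standard trees. DAM5 had 0.649 to 1.13 RPKM in weeping and 0.859 to 1.36 RPKM in standard trees, and DAM6 had 0.140 to 0.328 RPKM in weeping and 0.160 to 0.364 RPKM in standard trees. No 2 neighbours in this order overlapped over the 8 trees, although the lowest DAM4 value, 1.38 RPKM in weeping tree 1, was close to the highest DAM5 value, 1.36 RPKM in standard tree 7. The ratio of RPKM within a tree was 2.48 to 3.80 for DAM3 over DAM4, 1.58 to 2.15 for DAM4 over DAM5 and 2.43 to 5.38 for DAM5 over DAM6.

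DAM1 and DAM2 could not be placed in that order. On the RPKM scale DAM2 had 13.0 to 15.5 in weeping and 10.7 to 15.96 in standard trees, above DAM3, and DAM1 had 1.89 to 3.73 in weeping and 2.62 to 5.01 in standard trees. Their models span about 1 kb, however, against 7116 to 8685 bp for DAM3 to DAM6. Any introns inside a model count toward its length and are absent from spliced transcripts. Whether the short models cover the whole of DAM1 and DAM2 was not tested, so their reads and levels may be partial. In reads, DAM3 exceeded DAM2 in every tree, by 2.35 to 4.72 times in weeping and 4.06 to 5.98 times in standard trees.

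**Figure D4:**
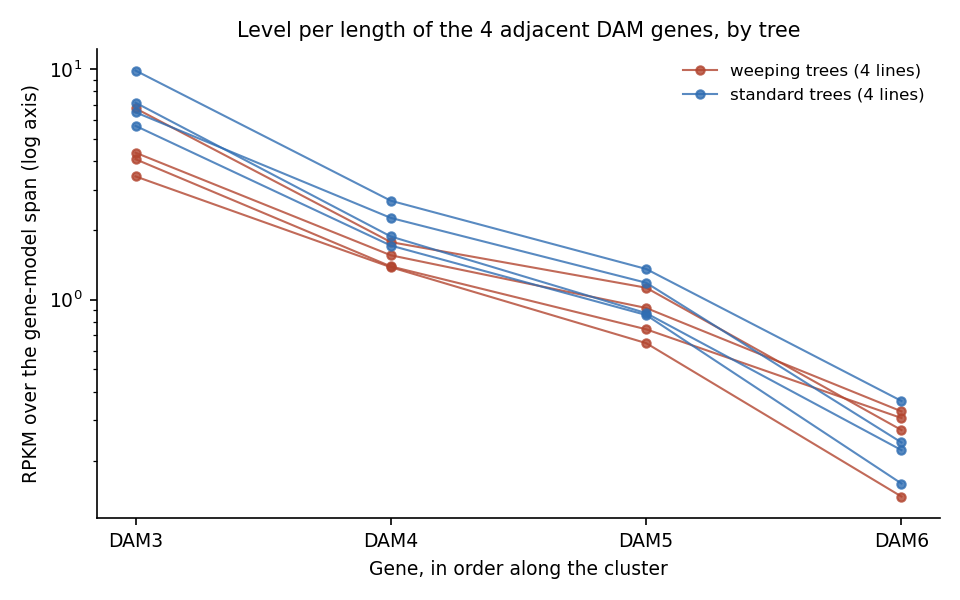
Level per length (RPKM over the gene-model span, logarithmic y axis) of DAM3, DAM4, DAM5 and DAM6 in the order in which they lie along the cluster (x axis), 1 line per tree. All 8 lines step down from DAM3 to DAM6, and weeping and standard trees interleave at all 4 genes.

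The make-up of the DAM reads varied between trees, mainly in DAM3 against DAM2. DAM3 took 48.5, 49.6, 48.8 and 58.8% of the reads in the 6 genes in weeping trees 1 to 4, and 61.3, 56.0, 58.9 and 59.2% in standard trees 7 to 10. Weeping tree 4 again lay inside the standard range while the other weeping trees lay below it. DAM2 took 20.6, 19.5, 19.2 and 12.5% in weeping trees 1 to 4 and 10.3, 12.8, 12.2 and 14.6% in standard trees 7 to 10. DAM4 took nearly the same share in both habits, 15.6 ± 1.53% in weeping and 15.6 ± 1.51% in standard trees (SD, n = 4 each). These shares do not depend on how libraries are scaled, and no test was made on them. Summed over the 6 genes the level was 73.0 to 116 CPM in weeping trees and 97.6 to 159 CPM in standard trees.

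**Figure D5:**
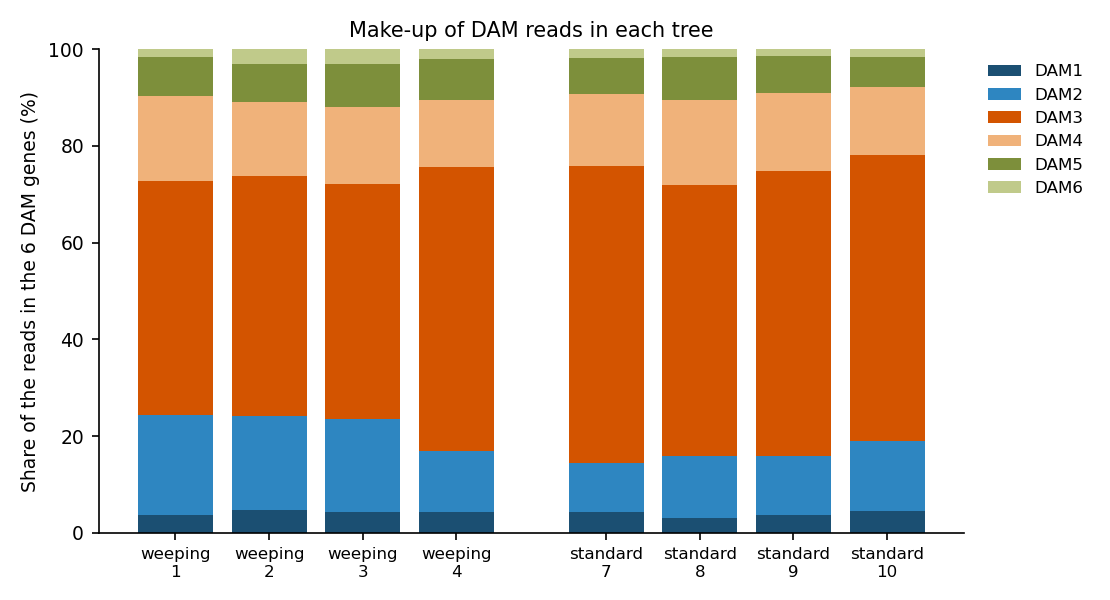
Share (percent, y axis) of the reads in the 6 DAM genes that fell in each gene, for weeping trees 1 to 4 and standard trees 7 to 10 (x axis; 1 stacked bar per tree). The DAM3 segment covers 48.5 to 58.8% in weeping trees and 56.0 to 61.3% in standard trees.

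Agreement between members from tree to tree was examined for pairs of genes. Over the 8 trees, Pearson's r of log2 CPM was computed for the 15 pairs of DAM genes, and all 15 were above 0. After Benjamini-Hochberg adjustment 4 pairs passed 0.05 by an exact two-sided permutation test, and 0 passed with Spearman's rho. Trees were permuted across both habits, so a habit difference shared by both genes of a pair enters these p-values. DAM3 and DAM4 had r = 0.92 (adjusted exact permutation p = 0.0188) and rho = 0.90 (adjusted exact permutation p = 0.0685). DAM4 and DAM5 had r = 0.90 (adjusted exact permutation p = 0.0188) and rho = 0.81 (adjusted exact permutation p = 0.109). DAM1 and DAM3 had r = 0.88 (adjusted exact permutation p = 0.0222) and rho = 0.86 (adjusted exact permutation p = 0.0804). DAM3 and DAM5 had r = 0.86 (adjusted exact permutation p = 0.0319) and rho = 0.71 (adjusted exact permutation p = 0.216).

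Without the 2 trees farthest from the median of the first gene, r was 0.84 for DAM3 and DAM4 (exact permutation p = 0.0278, n = 6) and 0.65 to 0.72 for the other 3 pairs (exact permutation p = 0.106 to 0.158, n = 6). Leaving out extreme trees narrows the range and the number of trees, which can by itself lower r and raise p. After each habit's mean was subtracted, r was 0.82 for DAM3 and DAM4, 0.93 for DAM4 and DAM5, 0.90 for DAM1 and DAM3 and 0.85 for DAM3 and DAM5. Agreement within habits was not tested. Over the 8 trees DAM2 had r of 0.07, 0.08 and 0.05 to DAM3, DAM4 and DAM5, 0.35 to DAM1 and 0.55 to DAM6. DAM6 had r of 0.38 to DAM3 and 0.34 to DAM4. The coefficient of variation of DAM2 was 5.34% in weeping trees, where its counting error was 5.84%, and 15.1% in standard trees. So small a spread can by itself lower r. All members share each library's scaling and depth, and other genes too had r values as high as in the pairs that passed. In the list of 18519 genes ordered by r to DAM3, DAM4 came at rank 571, DAM1 at rank 1074 and DAM5 at rank 1306. In the list of DAM4, DAM5 came at rank 563. Seen from the other gene of each pair the ranks were nearer the top. DAM3 came at rank 389 for DAM4, 191 for DAM1 and 292 for DAM5, and DAM4 at rank 105 for DAM5.

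For each DAM gene, some of the 18519 other tested genes had a higher r than its own relatives did. With so many candidates and few relatives this was likely in advance, and it says nothing about the members. Among the 100 tested genes most like a member by Pearson's r of log2 CPM over the 8 trees, there was no other DAM gene for any member. The 100 are a small part of the 18519 candidates, so few or no relatives would be found there by chance. The nearest came at rank 105, DAM4 in the list of DAM5. For DAM3 the most alike was a gene on scaffold 3 (5720078 to 5723736), with r = 0.99, rho = 0.98 and r = 0.99 with habit means removed. For DAM4 it was a gene elsewhere on scaffold 1 (21244032 to 21246918), with r = 0.99, rho = 0.98 and r = 0.99 with habit means removed. The first of these had 69.7 CPM in weeping and 107 CPM in standard trees on average, and the second had 15.7 and 21.9 CPM in weeping and standard trees. For the other 4 members the 2 most alike genes had r of 0.97 to 0.99, and they lay on scaffolds 2, 4, 5, 6 and 7. With 18519 candidates and 8 trees, such values are a description of these libraries.

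Part of the DAM reads matched more than 1 place in the genome, and the table does not give the other places. Summed over all libraries, single-place reads made up 81.6% of the reads of DAM1, 86.4% of DAM2, 95.4% of DAM3, 86.9% of DAM4, 87.4% of DAM5 and 93.3% of DAM6. In 4 of the 6 the share was under 90%, as in 11.04% of all tested genes, whose median share was 100%. In the test of this share between habits no single gene could pass, since 4 against 4 trees and 6 tests allow a lone gene no adjusted p below 0.171. The share was 94.7 ± 1.09% in weeping and 95.7 ± 0.700% in standard trees for DAM3, and 86.1 ± 1.88% in weeping and 88.1 ± 3.28% in standard trees for DAM5 (SD, n = 4 each). Over the reads of all genes it was 95.1 ± 0.0692% in weeping and 94.4 ± 0.230% in standard trees (SD, n = 4 each). The smallest adjusted p over the 6 exact two-sided permutation tests was 0.943. With single-place reads alone the log2 fold changes were -0.67 for DAM3 and -0.48 for DAM4, and 0 of the 6 passed by edgeR, where 11.9% of genes passed. How the multi-place reads were assigned is not given. They made up over 10% of the reads of DAM1, DAM2, DAM4 and DAM5. In read placement alone, the levels of these genes are therefore less certain than those of DAM3 and DAM6. The level of DAM6 is limited instead by its 22 to 55 reads per library.

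The listed models inside the cluster that are not DAM members were described as well. A model between DAM2 and DAM1 (46391410 to 46393852, 2443 bp) had 276 to 363 reads in weeping trees and 264 to 515 in standard trees, of which 93.8% were placed once. Its level was 17.1 ± 3.14 CPM in weeping and 20.4 ± 5.42 CPM in standard trees (SD, n = 4 each; log2 fold change -0.25, adjusted p = 0.420 by edgeR). Its r over the 8 trees was 0.89 with DAM1, 0.86 with DAM3 and 0.45 with DAM2, a description without a test. The other 2 models, at 46378836 to 46379480 and 46393952 to 46394913, had at most 5 reads in any library and were not tested.

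Genes beside the cluster gave a local comparison. Of the 10 listed genes on each side, 19 of 20 were tested and 2 passed by edgeR, 1 higher and 1 lower in weeping trees, where 11.5% of all tested genes passed. The gene that was higher (46299968 to 46304599) had 10.4 ± 1.29 CPM in weeping and 6.72 ± 0.824 CPM in standard trees (SD, n = 4 each; log2 fold change 0.64, adjusted p = 0.0304 by edgeR). The gene that was lower (46285077 to 46287878) had 10.9 ± 2.15 CPM in weeping and 16.2 ± 0.535 CPM in standard trees (SD, n = 4 each; log2 fold change -0.57, adjusted p = 0.0392 by edgeR). Both lie beyond DAM6. The median log2 fold change of the tested neighbours was 0.10, and 6 of the 19 were below 0. Neither call held when any one of weeping trees 1, 2 or 3 or standard trees 7, 8 or 10 was left out, where 0 of the neighbours passed by edgeR.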

How the data were processed

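Per the labels' protocols, 2% PVP was added at lysis and the TruSeq libraries were read unpaired at 50 bp. The authors deposited raw counts of total exon reads (multi-place reads included) and of unique exon reads (1 place) per gene model, and RPKM values, after trimming, per the file headers. The deposited RPKM divides by the whole model span, introns included, in all 27864 models. The sources used here name neither aligner nor genome build. Per the file headers, Baggerley's test gave the authors' fold, a signed score, and their p-value with its corrected form. A further 129 columns of per-library or group values were not used.

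Total reads were fitted on the whole table with edgeR 4.0.16 in R 4.3.3: filterByExpr (minimum count 10; 18520 genes kept), TMM scaling, a quasi-likelihood F-test of habit, and Benjamini-Hochberg adjustment at 0.05. Standard errors divide the log2 fold change by the root of F, and 95% intervals are t-based. Log2 CPM used a prior count of 2. Alternatives used DESeq2 1.42.0 and limma 3.58.1, other scalings and filters, single-place reads, lane, and leaving out each tree. The script was tested on simulated data. The named genes were the 6 members, WEEP, the 2 genes most like each member, and the called neighbours among 10 on each side. Lists of other dormancy genes and of tissue markers were not used, since the RefSeq gene table (assembly NCBIv2) matched 0 identifiers. The members, lists and alternatives were chosen with earlier results of these data known. Start positions are printed counted from 1. No 2 libraries of a habit were alike within counting noise (smallest chi-square 15.6 per degree of freedom), so each counted as a replicate; the labels call the trees biological replicates. Permutation tests of 4 against 4 trees cannot go below p = 0.0286. Plots used Python 3.11.15 with matplotlib 3.10.9.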

Additional observations from a re-analysis of the deposited data

Results flagged for a closer look

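In standard trees, single-place reads made up 94.6% of DAM3 reads in tree 9, against 95.9 to 96.1% in the other 3 trees. The gap to the nearest tree was 0.855 of the group's range, above Dixon's 95% critical value for 4 values. This was 1 of 24 groups examined (CPM and single-place share of each DAM gene in each habit), and chance flags about 1 in 20 such groups. Over all genes, too, tree 9 had the lowest single-place share of the standard trees (17330300 of 18419187 reads). Whether this bears on the DAM3 value was not tested.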

How the results depend on the processing

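DAM1 to DAM6 gave 101 log2 fold changes under 17 alternatives, of which 88 kept both direction and side of the threshold. The causes of the others were not tested. With DESeq2, DAM3 (-0.65, adjusted p = 0.0372) and DAM4 (-0.49, adjusted p = 0.0335) passed, so 2 DAM genes were called, with 3872 genes and 6 neighbours. Within lane 6, DAM3 passed at -0.95 (1 DAM gene called) and DAM6 turned to -0.14; with lane as a term DAM6 was -0.13 and 0 neighbours passed. With 5 genes on each side 1 neighbour passed. With a tree left out, the ranges were -0.54 to -0.16 for DAM1, -0.071 to 0.092 for DAM2, -0.91 to -0.48 for DAM3, -0.58 to -0.37 for DAM4, -0.50 to -0.19 for DAM5 and -0.080 to 0.32 for DAM6. The calls then numbered 0 to 2 DAM genes, 0 to 5 neighbours and 20 to 3923 genes in all. Over all alternatives the adjusted p was 0.0132 to 0.212 for DAM3 and 0.0335 to 0.181 for DAM4. DAM6 did not pass the stricter filter and has no value there. No paired analysis was possible because the habits share no tree numbers. Depth limits DAM6 most, at 22 to 55 reads per library.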
